A study of Danio rerio with 6 samples.

Results

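The pineal organ of fish is a small photoreceptive gland on top of the brain. Its photoreceptors carry opsins of their own, respond to light directly and release melatonin at night. Melatonin is made from tryptophan by hydroxylation (Tph) and decarboxylation to serotonin, then by acetylation (Aanat) and methylation (Asmt). Fish keep separate *aanat* genes, with *aanat2* transcribed mainly in the pineal organ under control of the circadian clock and *aanat1* mainly in the retina.

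Of 10 genes listed for pineal photoreception and melatonin synthesis, 7 were measured, among 19260 genes on the array that have a probe set of their own. A gene counted as measured where the platform table gives a probe set its symbol alone, and each of the 7 had 1 such probe set. They were the opsin genes *exorh* and *parapinopsinb*, the tryptophan hydroxylase genes *tph1a* and *tph2*, the acetyltransferase genes *aanat1* and *aanat2*, and the methyltransferase gene *asmt2*. No probe set names *parapinopsina*, *parietopsin* or *asmt* alone, so these 3 were not analysed here.

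The samples were 3 arrays of *il7r*-/- larvae and 3 of WT larvae of the Tu strain, all whole larvae at 4 dpf, each array from a pool. The *il7r*-/- larvae were homozygous for a frameshift deletion that CRISPR/Cas9 made in the interleukin 7 receptor gene, and all came from 1 mutant line. Both groups were raised in a dark/light cycle, and the hour of collection is not given in the sources used here. The deposited values are RMA values on the log2 scale, and every change below is *il7r*-/- minus WT on that scale.

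The 3 *il7r*-/- arrays correlated with each other at 0.979 to 0.98 over all probe sets, while WT replicate 3 stood apart from the other WT arrays with a correlation of 0.965 with each. The probe set of *il7r* read 1.42, 1.64 and 1.71 in *il7r*-/- larvae and 1.4, 1.8 and 1.76 in WT larvae, at the 3.52 percentile of genes by level. At this dim level, and for a frameshift allele, it does not check the labels. Precision is limited by the number of arrays, and with 3 against 3 an exact permutation p cannot go below 0.1.

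None of the 7 pineal and melatonin genes was called changed in *il7r*-/- larvae by limma, where a call needed a fold change over 1.5 and an adjusted p under 0.05, with all 75212 probe sets in the adjustment. By the same rule 0.234% of all genes were called. Without adjustment, 0 of the 7 had a p under 0.05 by limma and 0 by the methods' test on single probe sets, against 2378 of all 19260 genes by limma. In other settings the unadjusted p of *asmt2* was under 0.05 when only probe sets that name 1 gene were fitted or WT replicate 1 was left out, that of *exorh* without WT replicate 3, and those of *aanat1* and *tph2* without *il7r*-/- replicate 3. The change was above 0 in 4 genes and below 0 in 3, and the median was 0.19, beside -0.02 over all genes. All 7 lay below the median level of genes on the array, 4.67, and 4 of them (*parapinopsinb*, *tph2*, *aanat1* and *asmt2*) also below the lower tertile bound of 3.905. RNA of a small organ is diluted in whole larvae, and fewer pineal cells cannot be told apart from less RNA per cell.

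**Figure D1:**
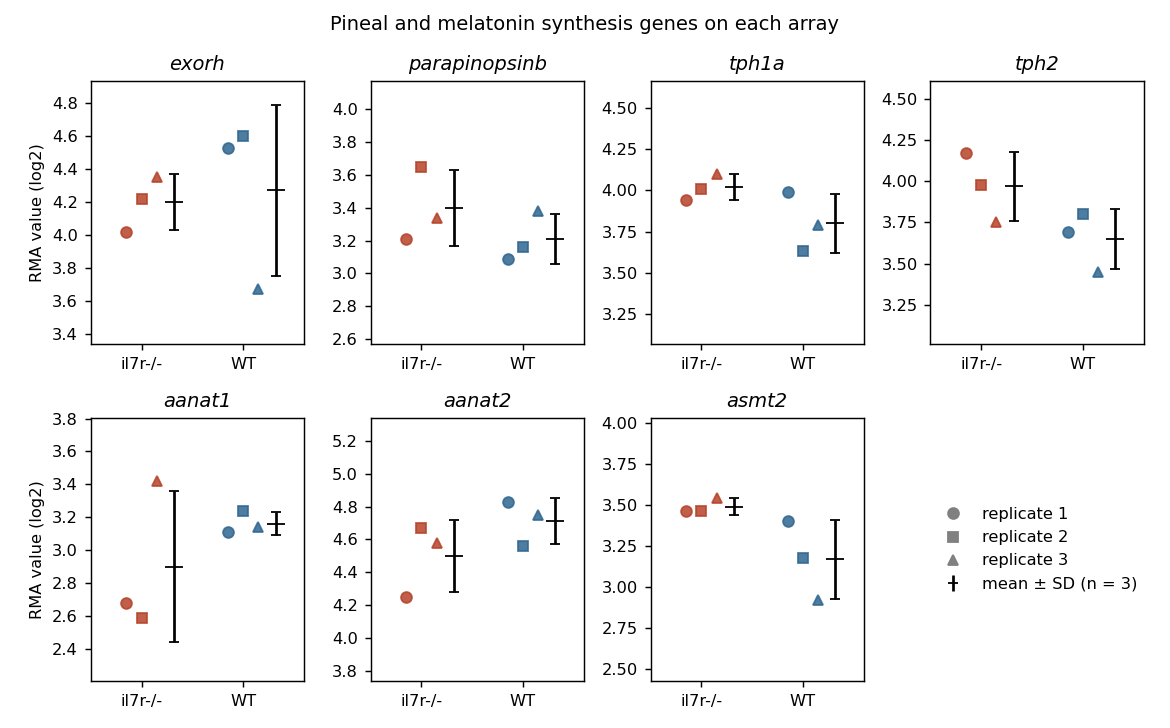
RMA values (log2, vertical axis, the same span in each panel) of the 7 measured genes on each *il7r*-/- array (left, red) and WT array (right, blue), with symbols for replicate numbers and black bars for mean ± SD (n = 3). The groups overlap in 6 panels, the *asmt2* panel is the exception, and WT replicate 3 (3.67) lies far below the other WT arrays in the *exorh* panel.

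*exorh* encodes exo-rhodopsin, the rod-like opsin of the pineal organ, and it had no detectable difference between the genotypes. Its values were 4.02, 4.22 and 4.35 in *il7r*-/- larvae and 4.53, 4.6 and 3.67 in WT larvae. WT replicates 1 and 2 were higher than all *il7r*-/- arrays and WT replicate 3 was lower than all of them, so the WT arrays enclosed the *il7r*-/- arrays. The means were 4.2 ± 0.17 and 4.27 ± 0.52 (SD, n = 3 each). By limma the change was -0.07 with a standard error of 0.26 (adjusted p = 0.941), or 0.953-fold with a 95% interval of 0.617 to 1.47. This value rests on WT replicate 3. Without it the change was -0.37 (adjusted p = 0.344), and without WT replicate 1, WT replicate 2 or *il7r*-/- replicate 1 it was 0.06, 0.1 and 0.02.

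WT replicate 3 was also the lowest WT array in many photoreceptor genes, though not in the other measured pineal opsin gene, *parapinopsinb*. *gnat1*, which encodes the alpha subunit of rod transducin and was singled out after its values were seen, had 5.4, 5.67 and 5.11 in *il7r*-/- larvae and 7.22, 6.88 and 5.32 in WT larvae. The WT array that was low in *exorh* was also the low one in *gnat1*. In a list of photoreceptor genes of the retina and pineal organ, WT replicate 3 was the lowest WT array in 25 of 32 genes, with a median of 0.42 below the mean of the other WT arrays. It was the lowest in 13 of 13 lens genes and in 38.8% of all genes. Among the 7 members it was the lowest WT array in 3, and its median difference from the mean of the other WT arrays was -0.03. In *parapinopsinb* it was the highest WT array, at 3.38. What part these differences have in the *exorh* value was not tested.

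*parapinopsinb* encodes the other measured pineal opsin, a parapinopsin, which belongs to a family of bistable pigments. It had 3.21, 3.65 and 3.34 in *il7r*-/- larvae and 3.09, 3.16 and 3.38 in WT larvae. Only *il7r*-/- replicate 2 was above all WT arrays, and the remaining values of the groups overlapped. Limma gave a change of 0.19 with a standard error of 0.15 (adjusted p = 0.677), with a 95% interval of 0.883-fold to 1.47-fold. Without *il7r*-/- replicate 2 the change was 0.07.

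Tryptophan hydroxylase is the first enzyme of serotonin and melatonin synthesis, and both measured genes had a higher mean in *il7r*-/- larvae without passing the test. *tph1a*, which is transcribed in the pineal organ, had 3.94, 4.01 and 4.1 in *il7r*-/- larvae and 3.99, 3.63 and 3.79 in WT larvae. The groups overlapped through WT replicate 1 alone. Limma gave a change of 0.21 with a standard error of 0.13 (adjusted p = 0.574), and without WT replicate 2 it was 0.13.

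*tph2*, the hydroxylase gene of serotonergic neurons of the raphe, which the pineal organ also transcribes, had 4.17, 3.98 and 3.75 in *il7r*-/- larvae and 3.69, 3.8 and 3.45 in WT larvae. Here *il7r*-/- replicate 3 lay below WT replicate 2, and the others of the mutant group lay above all WT arrays. Limma gave a change of 0.32 with a standard error of 0.16 (adjusted p = 0.485), or 1.25-fold with a 95% interval of 0.963 to 1.62. Another hydroxylase gene, *tph1b*, is no member and was added for its role after its values were seen. It was dim, with means of 2.82 ± 0.25 in *il7r*-/- and 2.91 ± 0.19 in WT larvae (SD, n = 3 each).

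The acetyltransferase genes had lower means in *il7r*-/- larvae, again without passing the test. *aanat2*, whose product sets the nightly rhythm of melatonin, had 4.25, 4.67 and 4.58 in *il7r*-/- larvae and 4.83, 4.56 and 4.75 in WT larvae. The lowest value was that of *il7r*-/- replicate 1, while WT replicate 2 lay below the other *il7r*-/- arrays. Limma gave a change of -0.21 with a standard error of 0.15 (adjusted p = 0.629), or 0.863-fold with a 95% interval of 0.672 to 1.11. Without *il7r*-/- replicate 1 the change was -0.09.

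*aanat1*, the acetyltransferase gene of the retina, had 2.68, 2.59 and 3.42 in *il7r*-/- larvae and 3.11, 3.24 and 3.14 in WT larvae. The WT arrays lay close together, and the *il7r*-/- arrays fell on both sides of them. Limma gave a change of -0.27 with a standard error of 0.23 (adjusted p = 0.693). It was -0.53 without *il7r*-/- replicate 3 (adjusted p = 0.347), the array that was highest of all 6, and was nearer to 0 without *il7r*-/- replicate 1 (-0.16) or replicate 2 (-0.11).

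*asmt2* encodes a methyltransferase of the family that completes melatonin, and it was the only one of the 7 genes whose groups did not overlap. It had 3.46, 3.46 and 3.54 in *il7r*-/- larvae and 3.4, 3.18 and 2.92 in WT larvae. Every *il7r*-/- array was above every WT array, though the gap to WT replicate 1 was small. Among all genes, 8.84% had groups that did not overlap with *il7r*-/- larvae higher. The means were 3.49 ± 0.05 and 3.17 ± 0.24 (SD, n = 3 each). By limma the change was 0.32 with a standard error of 0.15 (adjusted p = 0.455), and the exact permutation p was 0.1, the smallest possible. The change was 0.2 without WT replicate 3 and 0.44 without WT replicate 1. No member had groups that did not overlap with *il7r*-/- larvae lower, against 13.4% of all genes.

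**Figure D2:**
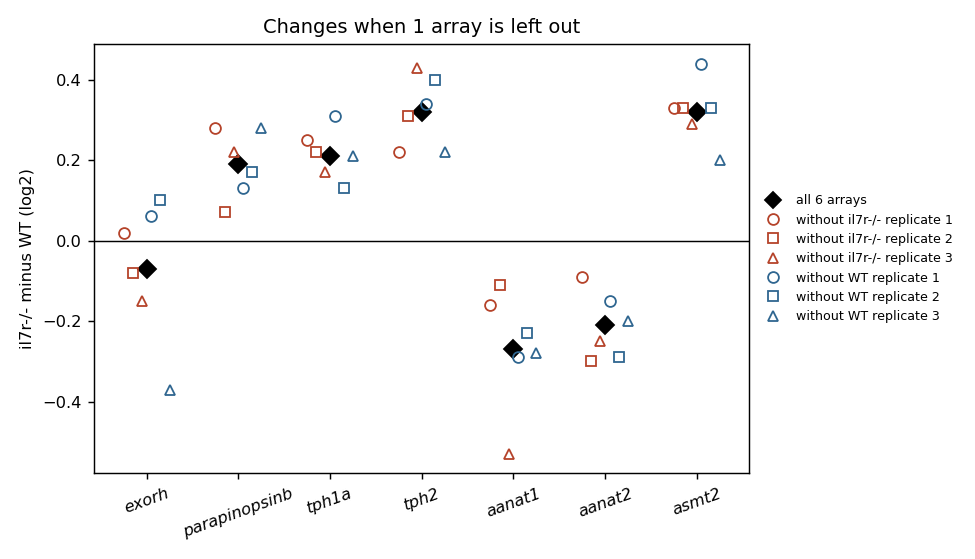
Change of each gene (*il7r*-/- minus WT, log2, vertical axis) with all 6 arrays (black diamonds) and with 1 array left out (open symbols, red where an *il7r*-/- array and blue where a WT array was left out). The sign turned in *exorh* alone, whose values ran between -0.37 and 0.1, and the largest shift in another gene was that of *aanat1* to -0.53.

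The 95% intervals from limma say how large a change these arrays leave possible under its model. That model draws each gene's variance toward a common one, and the intervals are not adjusted for the number of genes. Intervals from each gene's own variance are not given here and could be wider. The half-width of the 95% interval was between 0.31 and 0.63 over the 7 genes, beside 0.58 for a 1.5-fold change. All 7 intervals held 0. A fall of 1.5-fold lay inside the interval of *exorh* and *aanat1*, a rise of 1.5-fold inside that of *tph2* and *asmt2*, and a change of 1 in either direction inside none. Array values of dim probe sets tend to understate changes in RNA, so these bounds hold for the array values.

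Photoreceptor genes measured on the same arrays mostly had changes below 0. The list of photoreceptor genes of the retina and pineal organ holds transducin, phosphodiesterase, recoverin, arrestin and opsin kinase genes that cones, rods or pineal photoreceptors use. Of its 32 measured genes, 2 fell and none rose, where 0.182% of all genes fell by the same rule. Phototransduction was a theme the study took from these arrays, so this list is no independent evidence of its direction. By another method, the study reported lower qRT-PCR levels of phototransduction genes, which it had selected from its analyses of these arrays. It also reported reduced staining of cones and rods in younger *il7r*-/- embryos, with smaller eyes, thinner retinal layers and shorter bodies. What part eye size has in the values of these whole larvae was not tested. The changes of the 32 genes ran between -1.95 and 0.01 with a median of -0.93. The change was below 0 in 31 genes of this list and in 10599 of all 19260 genes. In 23 of the 32 the *il7r*-/- arrays were all below the WT arrays, against 13.4% of all genes. The mean level of the list was 5.44 to 5.73 in *il7r*-/- arrays and 6.2 to 6.73 in WT arrays. The genes that fell were *rbp3*, which encodes the retinoid-binding protein between photoreceptors and pigment epithelium, and *rcvrn3*, a recoverin gene. *rcvrn3* had 6.79, 6.8 and 6.46 in *il7r*-/- larvae and 8.62, 8.5 and 8.54 in WT larvae, a change of -1.87 (adjusted p = 0.0171 from limma). Both calls held when WT replicate 3 was left out, where the list had 5 lowered genes, beside 50 of all 19260 genes. Both were lost when any other array was left out (adjusted p up to 0.133 for *rbp3* and 0.11 for *rcvrn3*, from limma).

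The brightest genes in the list of retinal cone and rod markers were the ultraviolet opsin gene *opn1sw1* and the cone transducin gene *gnat2*. Their changes were -1.76 and -1.55, and neither passed the test (adjusted p = 0.0939 and 0.166 from limma). Over the 13 measured markers of that list the changes ran between -1.76 and -0.01. The list is not separate from the others, since it shares *gnat1*, *gnat2* and further genes with the photoreceptor list. It also shares *crx* and *nr2e3* with the pineal factors below. The dim probe sets of the pineal genes limit a comparison of sizes with these markers.

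**Figure D3:**
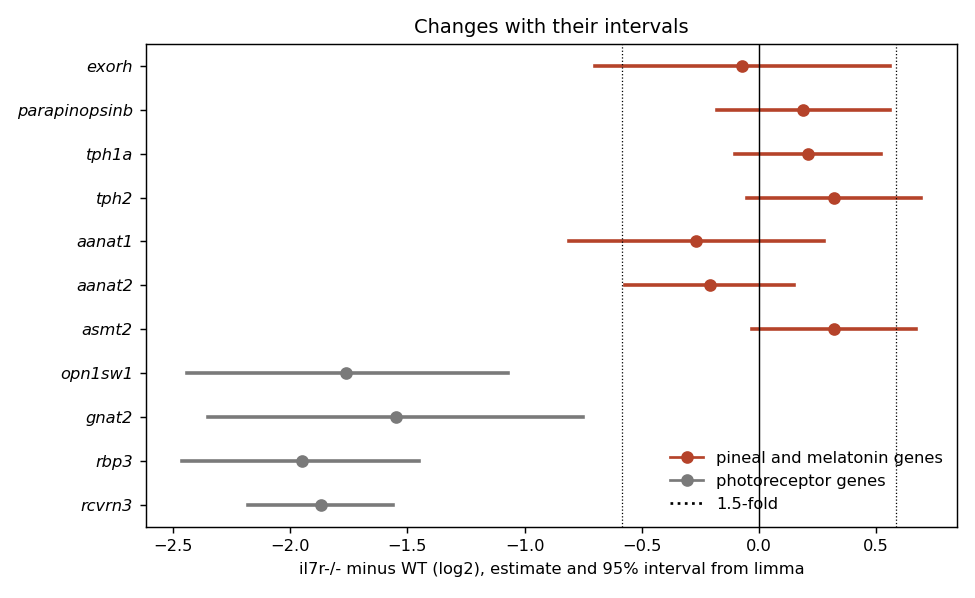
Change (*il7r*-/- minus WT, log2, horizontal axis) with its 95% interval from limma for the 7 pineal and melatonin genes (red) and 4 photoreceptor genes (grey), with dotted lines at 1.5-fold. The red intervals all hold 0, with estimates between -0.27 and 0.32. The grey genes are the 2 that were called and the 2 brightest cone and rod markers, with estimates between -1.95 and -1.55, while all 32 photoreceptor genes run between -1.95 and 0.01.

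Genes that build the pineal organ were measured through a list of 20 transcription factor genes. None was called, the median change was -0.08, and 13 were below 0, beside 10599 of all 19260 genes. The changes ran between -0.67 and 0.27. The *il7r*-/- arrays were all below the WT arrays in 3 of the 20 and all above them in 1, beside 13.4% and 8.84% of all genes. The brightest were *lhx9* and *isl1a*, LIM homeobox genes that many neurons express, with changes of 0.01 and -0.17 (adjusted p = 0.991 and 0.77). Some of the factors were singled out for their role after their values were seen. These, *otx5*, *crx* and *bsx*, all had changes below 0. Among the rest, also named after their values were seen, *nr2e3* (-0.61) and *pax6a* (-0.57) were below 0 too. The changes of *otx2b* (0.06), *noto* (0.19) and *insm1a* (0.27) were above 0. *otx5*, a homeobox gene that drives rhythmic transcription in the zebrafish pineal organ, had 5.14, 5.18 and 4.83 in *il7r*-/- larvae and 5.78, 5.61 and 5.13 in WT larvae. Its change was -0.46 (adjusted p = 0.434 from limma), and WT replicate 3 again lay among the mutant values. *crx*, a related factor of photoreceptors, had a change of -0.67 (adjusted p = 0.371) and *bsx*, which specifies pineal cell types, one of -0.34 (adjusted p = 0.464). In *bsx* the groups did not overlap, with 3.3, 3.23 and 3.24 in *il7r*-/- larvae and 3.56, 3.34 and 3.89 in WT larvae. Without WT replicate 3 the change of *bsx* was nearer to 0, at -0.19. Those of *otx5* and *crx* were further below 0, at -0.65 and -0.94.

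Of 10 genes of the neighbouring parapineal organ and habenula none was called, and the median was -0.03. Some of these genes are also in the list of transcription factor genes above. The groups were apart with *il7r*-/- larvae higher in 3 of the 10 and lower in 2, beside 8.84% and 13.4% of all genes. The brightest was *nrp1a*, which encodes a neuropilin, a semaphorin co-receptor of axons. It had 7.71, 7.62 and 7.74 in *il7r*-/- larvae and 7.32, 7.33 and 7.45 in WT larvae, with the mutant arrays all higher (change 0.32, adjusted p = 0.308 from limma). The next was *lrrtm1*, a leucine-rich repeat gene, with 6.84, 6.77 and 6.7 in *il7r*-/- larvae and 6.88, 6.99 and 6.91 in WT larvae. Here the mutant arrays were all lower (change -0.16, adjusted p = 0.603).

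Of the genes that receive the melatonin signal, 5 receptor genes were measured and none was called. Their median change was 0 to 2 decimals. *mtnr1ab* had 5.21, 4.96 and 4.58 in *il7r*-/- larvae and 5.2, 5.3 and 5.54 in WT larvae, a change of -0.43 (adjusted p = 0.437), and the groups overlapped through *il7r*-/- replicate 1. *mtnr1aa* had a change of -0.05 (adjusted p = 0.891).

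Genes that supply and remove serotonin showed no called change in 19 measured genes, and their median was -0.03. The brightest were the amino acid transporter genes *slc7a5* and *slc7a8a*, with a change of -0.16 in each. Further genes of the serotonin route were named for their role after their values were seen. *ddc*, the decarboxylase gene between the hydroxylase and serotonin, had 2.87, 2.98 and 2.98 in *il7r*-/- larvae and 3.5, 3.03 and 3.5 in WT larvae, a change of -0.4 (adjusted p = 0.391). *slc18a2*, the vesicular monoamine transporter gene, had a change of -0.47 (adjusted p = 0.272), also with groups that did not overlap. Both are among the lowest changes of this list. Over the 19 genes the changes ran between -0.47 and 0.28, and 12 were below 0, beside 10599 of all 19260 genes. The groups were apart with *il7r*-/- larvae higher in 1 and lower in 4, beside 8.84% and 13.4% of all genes.

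Over 9 raphe and serotonergic markers the median was 0.12, and the mean level was 4.62 to 4.65 in *il7r*-/- arrays and 4.54 to 4.62 in WT arrays. None was called. The groups were apart with *il7r*-/- larvae higher in 2 of the 9 and lower in 2, beside 8.84% and 13.4% of all genes. The brightest were the midbrain and hindbrain patterning genes *pax2a* and *en2a*. *pax2a* had 6.3, 6.36 and 6.31 in *il7r*-/- larvae and 6.19, 6.14 and 6.09 in WT larvae, with the mutant arrays all higher (change 0.18, adjusted p = 0.523 from limma). *en2a* had a change of 0.29 with overlapping groups (adjusted p = 0.478). The markers *fev*, a transcription factor gene of serotonergic neurons, and *slc6a4a*, the serotonin transporter gene, were added after their values were seen. Their changes were 0.05 and 0.01 (adjusted p = 0.915 and 0.983 from limma). The 2 markers with the mutant arrays all lower were *ddc* and *slc18a2*, at -0.4 and -0.47. The list also holds the member *tph2*, at 0.32, and its changes ran between -0.47 and 0.32. Most of its other genes, among them *fev*, *slc6a4a*, *ddc* and *slc18a2*, are also in the list of serotonin supply and removal, so the lists are not separate.

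Tryptophan hydroxylase needs tetrahydrobiopterin, and none of 9 measured genes of that cofactor and its other users was called. The median change was -0.06, and 8 were below 0, beside 10599 of all 19260 genes. The changes ran between -0.72 in *gch2*, named after its values were seen, and 0.01. The *il7r*-/- arrays were all below the WT arrays in 1 of the 9, beside 13.4% of all genes. That gene was *spra*, which encodes sepiapterin reductase and was 1 of the 2 brightest. It had 5.33, 5.51 and 5.3 in *il7r*-/- larvae and 5.81, 5.67 and 5.73 in WT larvae. Its change was -0.36 (adjusted p = 0.297 from limma). *pts*, another gene of cofactor synthesis, had a change of -0.08 (adjusted p = 0.871). Among 7 relatives that acetylate or methylate other substrates none was called, and the median was -0.09, with changes of 0.19 in *nat8l* and -0.17 in *nat10*.

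Other opsins outside the visual pigments and the circadian clock, which drives *aanat2*, did include lowered genes. In the list of 23 other non-visual opsin genes 2 fell, where 0.182% of all genes fell by the same rule. They were *rgra*, an opsin-like gene of the eye, by 1.23 and the melanopsin gene *opn4.1* by 1.03 (adjusted p = 0.04 and 0.0384 from limma). The median was -0.27, and leaving out any 1 of the 6 arrays ended both calls. The change was below 0 in 19 of the 23, beside 10599 of all 19260 genes. In 10 of the 23 the *il7r*-/- arrays were all below the WT arrays and in 1 all above them, beside 13.4% and 8.84% of all genes. In the list of 43 clock and light-responsive genes 2 fell, beside the same 0.182% of all genes. *nr1d1*, a clock repressor gene, had 7.39, 7.37 and 7.42 in *il7r*-/- larvae and 8.64, 8.59 and 8.27 in WT larvae, a change of -1.11 (adjusted p = 0.039). *hlfa*, a clock output gene, had a change of -1.09 (adjusted p = 0.0364). Leaving out any 1 of the 6 arrays ended their calls, except that of *nr1d1* without WT replicate 3. The median of the clock list was -0.36, and the *il7r*-/- arrays were all below the WT arrays in 23 of 43 genes and all above them in 4, beside 13.4% and 8.84% of all genes. Changes of the clock list ran between -1.11 and 0.56, and 35 of the 43 were below 0. These whole-larva values do not single out the clock of the pineal organ, and the hour of collection is not given. In *aanat2* the groups overlapped, and its relation to the clock genes was not tested.

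**Figure D4:**
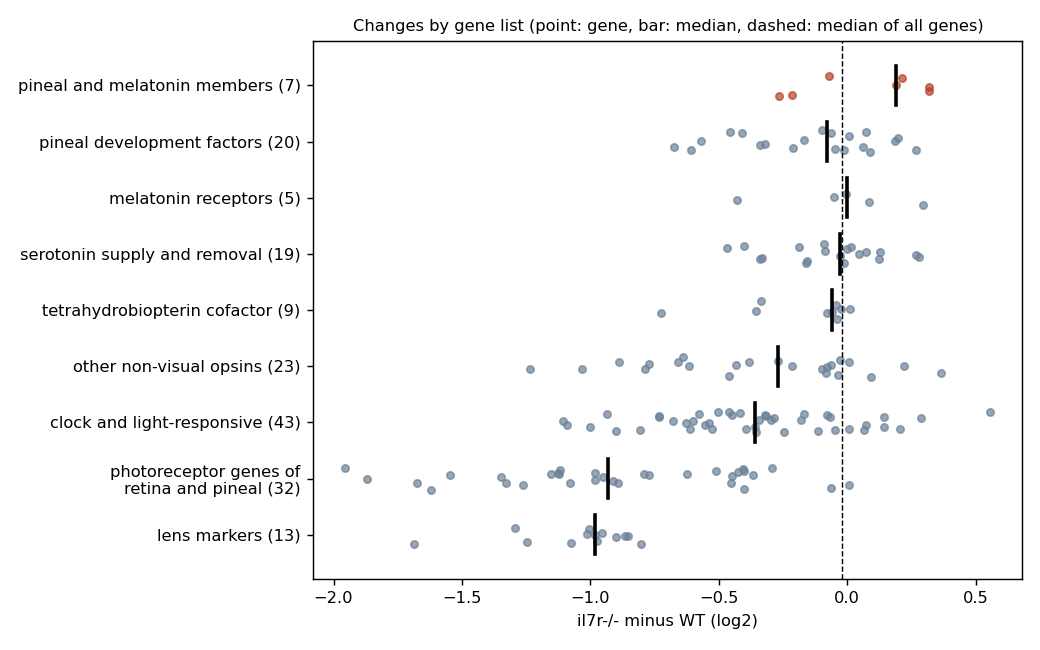
Change of each measured gene (*il7r*-/- minus WT, log2, horizontal axis) by gene list, with the number of genes in brackets, black bars for medians and a dashed line at the median of all genes (-0.02). The 7 pineal and melatonin genes have a median of 0.19 and span -0.27 to 0.32. The photoreceptor list has a median of -0.93 and spans -1.95 to 0.01, and the lens list has -0.98 and spans -1.69 to -0.8. Median levels of these lists are 3.81, 5.92 and 6.16, and the dim probe sets of the 7 genes limit a comparison of sizes.

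Lens markers moved in the same direction as the photoreceptor genes, and none of the 13 measured passed the test. Their median change was -0.98, and 13 were below 0, beside 10599 of all 19260 genes. In 12 of the 13 no *il7r*-/- array reached the lowest WT array, against 13.4% of all genes. Their mean level was 5.21 to 5.86 in *il7r*-/- arrays and 6.27 to 6.88 in WT arrays. Among them, the change was -0.97 in the crystallin gene *crybb1* (adjusted p = 0.178) and -1.29 in *cryba4* (adjusted p = 0.127). Retinal cone and rod markers, of which 13 were measured and none was called, had a median of -0.67. Their part in the values of the pineal genes was not tested.

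The genes most like *exorh* and *aanat2* over the 6 arrays were taken from 9632 genes at or above the median level, by Pearson's correlation of the log2 values. For *exorh* they were *mrpl20*, *lyrm2*, *irx4b*, *hnrnpua* and *klf9*, with correlations between 0.978 and 0.994, and each of these was lowest on WT replicate 3. For *aanat2* they were *stard7*, *tenm1*, *cnksr3*, *acvr2bb* and *prkar1b*, with correlations between 0.949 and 0.981, and each was lowest on *il7r*-/- replicate 1. These correlations rest on 6 arrays and are given as a description of which array was low.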

How the data were processed

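RNA of 6 whole-larva samples was hybridized to the Affymetrix Zebrafish Gene ST array. The authors processed the arrays in Expression Console, and the submitters' processing notes name RMA. The deposited values have 2 decimals, and their log2 scale was read from the values, since no base is stated. The genome build and annotation are not given in the sources used here. No further normalization was applied, and limma 3.58.1 in R 4.3.3 compared the genotypes (lmFit and eBayes, two-sided). All 75212 probe sets were fitted and adjusted by Benjamini-Hochberg, with no filter on dim ones. Of these, 20806 name 1 gene, 855 several and 53551 none, and a gene with several of its own (1365 genes) was represented by the brightest. Gene names are those of the platform annotation.

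The members, gene lists and tests were chosen with earlier results of these data known. Of each list, called genes were named, or the 2 brightest where none was called; other names are marked as chosen after their values were seen. The likeness rule named the 5 highest correlations. Alternatives were quantile normalization, median centring, a filter on dim features, a fit of only those that name 1 gene, an intensity trend with a robust prior, the methods' one-way analysis of variance with and without adjustment, no fold threshold, array weights, averaging over a gene's probe sets, a replicate block, and each array left out. The procedure was tested on simulated data. The methods give 3 batches of larvae as biological replicates, and the labels do not tie the replicate numbers to them.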

Additional observations from a re-analysis of the deposited data

How the results depend on the processing

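None of the 7 genes was called under any of the 17 alternatives, and the lowest adjusted p was 0.291. The dim filter, 1-gene fit, trend and robust prior, methods' test, fold threshold, block and averaging reuse the same group means. A member's change could not move in these alternatives, and only its p could. Over all alternatives the changes kept their direction and side of the threshold in all but 3 refits. The 3 were those of *exorh*, which was 0.06 without WT replicate 1, 0.1 without WT replicate 2 and 0.02 without *il7r*-/- replicate 1, within a range of -0.37 to 0.1 over the left-out arrays. The count of the 7 genes whose groups did not overlap ran between 1 and 3 when an array was left out, an alternative chosen after seeing the data. Leaving out an array leaves fewer values to overlap. The share of all genes with such groups in that setting is not given here, so nothing is read from these counts. Over all probe sets 224 were called, against 412 with the intensity trend and robust prior, 3 by the methods' test with adjustment, 2447 by it without adjustment, and 5 to 293 with 1 array left out. With the replicate block 1 probe set was called. Of the 6 calls named in other lists (*rbp3*, *rcvrn3*, *rgra*, *opn4.1*, *nr1d1* and *hlfa*), 0 were made with the block and 0 by the methods' test with adjustment. Without WT replicate 3, 3 of them held, and leaving out any other array ended all 6. All 6 held in the other alternatives that used all 6 arrays, though dropping the fold threshold could not end a call. Deviations of same-numbered arrays correlated at -0.00808, 0.00339 and 0.0229, so the numbers are not shown to pair the arrays. Low signal limits the 7 genes, all of which lay below the median level of genes.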
